A study of Mus musculus with 26 samples.

Results

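The inter-alpha-trypsin inhibitor genes comprise Itih1, Itih2, Itih3, Itih4 and Ambp, which were chosen by name and make up 5 of the 20933 genes over which RNA polymerase II (Pol II) was measured. They were examined in regenerating mouse liver by ChIP-seq, in which DNA attached to a given protein is precipitated with an antibody and sequenced. Wild-type C57BL6/J males aged 7 weeks, of a strain widely used in the laboratory, had 3 of their 5 liver lobes removed, and regenerating livers were taken at 3, 8, 16, 24, 36, 48 and 168 h. The tissue removed in the operation was the 0 h sample, so every group carries the same genotype and the 0 h tissue alone had no time to regenerate. Pol II, C/EBPalpha and C/EBPbeta were each precipitated at all 8 times, and Egr1 only at 36 h. The labels give 5 mice per time, but not whether their livers were pooled for a library. A library was made once for each antibody and time. Thus no value below has a replicate error, and no time can be tested against another. Differences between neighbours in an order of levels therefore cannot be set against a spread.

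Inter-alpha-inhibitors are plasma proteins secreted by hepatocytes. Ambp encodes a precursor that is split into alpha-1-microglobulin, a small carrier protein, and bikunin, a Kunitz-type protease inhibitor that bears a chondroitin sulfate chain. Itih1, Itih2 and Itih3 encode heavy chains that are joined to bikunin through this chain and can be passed on to hyaluronan, a polysaccharide of the extracellular matrix. Itih4 encodes a related plasma protein that lacks the processing site for this linkage, and in pig it is known as an acute phase protein, one whose plasma level rises in inflammation. C/EBPalpha and C/EBPbeta are related transcription factors of hepatocytes that bind at many genes for plasma proteins, and Egr1 is an immediate early transcription factor.

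Itih4, Itih3 and Itih1 form a cluster on chromosome 14. In the files' coordinates (mouse build mm9, rows beginning about 500 bp past the gene start), Itih4 ran from 31700188 to 31715029 on the plus strand. Itih3 ran from 31721762 to 31736231 and Itih1 from 31742366 to 31755975, both on the minus strand, so Itih4 and Itih3 point at each other. Gaps of 6733 bp and 6135 bp separated the rows of Itih4 from Itih3 and of Itih3 from Itih1. Itih2 lay on chromosome 2 from 10016218 to 10051790 and Ambp on chromosome 4 from 62804313 to 62814676, both on the minus strand. None of these 5 rows overlapped another gene entry. Exon and intron positions were not analysed here.

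The 250 bases before each start, from RefSeq for the build GRCm38.p6, are shown because C/EBP regions lay close to several of these starts. A RefSeq start need not be the start used in the files. Capitals mark matches to the C/EBP spellings TTGCNNAA and TTNNGNAA, the STAT spelling TTCNNNGAA, or the HNF1 half-site GTTAAT, on either strand; each line ends at the base before the start.
Itih4: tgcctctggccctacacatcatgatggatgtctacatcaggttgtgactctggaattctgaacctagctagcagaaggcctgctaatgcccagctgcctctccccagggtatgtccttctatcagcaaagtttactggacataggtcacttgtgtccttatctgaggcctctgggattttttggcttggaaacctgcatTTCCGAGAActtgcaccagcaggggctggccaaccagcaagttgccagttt
Itih3: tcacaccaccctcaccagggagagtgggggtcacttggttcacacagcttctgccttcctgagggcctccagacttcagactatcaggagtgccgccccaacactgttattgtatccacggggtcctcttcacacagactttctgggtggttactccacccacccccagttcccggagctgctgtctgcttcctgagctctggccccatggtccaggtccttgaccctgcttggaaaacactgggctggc
Ambp: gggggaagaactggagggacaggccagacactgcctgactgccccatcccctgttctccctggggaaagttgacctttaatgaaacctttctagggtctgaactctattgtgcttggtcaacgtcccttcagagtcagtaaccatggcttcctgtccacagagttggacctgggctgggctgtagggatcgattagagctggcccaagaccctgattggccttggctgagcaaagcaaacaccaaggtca
Itih2: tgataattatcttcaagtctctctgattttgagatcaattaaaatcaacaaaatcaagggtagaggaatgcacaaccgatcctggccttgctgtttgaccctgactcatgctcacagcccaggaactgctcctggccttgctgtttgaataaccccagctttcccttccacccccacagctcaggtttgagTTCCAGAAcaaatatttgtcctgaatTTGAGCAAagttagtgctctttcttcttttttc
Itih1: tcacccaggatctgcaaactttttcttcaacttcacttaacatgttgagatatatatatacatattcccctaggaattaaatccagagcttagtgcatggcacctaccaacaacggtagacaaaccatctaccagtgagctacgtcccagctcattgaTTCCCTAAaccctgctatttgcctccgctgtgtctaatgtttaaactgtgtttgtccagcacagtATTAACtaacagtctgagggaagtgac
The STAT spelling lay in Itih4 as TTCCGAGAA, 51 to 43 bases before the start, and 7.02% of 32851 promoters of the same length hold one. Itih2 held TTGAGCAA at 33 to 26 bases, which fits both C/EBP spellings, and TTCCAGAA at 59 to 52 bases, which fits the looser one. Itih1 held TTCCCTAA at 92 to 85 bases, a match to the looser C/EBP spelling, and the HNF1 half-site as ATTAAC at 27 to 22 bases. Of all promoters, 9.56% hold TTGCNNAA, 36.8% TTNNGNAA and 6.43% GTTAAT. Itih3 and Ambp had no match, and no member had TATAAA, held by 12.4% of promoters. The GC content ran from 42% in Itih1 to 58.8% in Itih3, around a median of 52.4% over all promoters.

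Pol II over the gene body, the signal as deposited divided by the row's length, was between 1.03 and 7.02 per bp at 0 h. Of measured genes, 2.41% to 12.7% were at or above the 0 h levels of the members. As deposited, Pol II was higher at all 7 later times than at 0 h for 4 of the 5 genes. After the rescaling of libraries described below, all 35 member changes against 0 h were above 0. The share of all genes that were higher at all 7 times was not computed. Itih1, Itih3 and Itih4 were higher by 1 or more on the log2 scale at all 7, as were 2.6% of tested genes. Itih4 had 7.02 per bp at 0 h, 269 at 3 h, 59.4 at 8 h, 47.3 at 16 h, 14.1 at 24 h, 17.2 at 36 h, 41.9 at 48 h, with 9.42 at 168 h. The 3 h library thus stood far above the others, and a second, smaller high came at 48 h. The Itih4 row held the largest summed signal of any measured gene in the 3 h library, and per bp Itih4 was 12th of 20933 genes there, against 504th at 0 h.

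Itih3, the heavy chain of pre-alpha-inhibitor, had 1.28 per bp at 0 h, 39.1 at 3 h, 19.6 at 8 h, 36.1 at 16 h, 13.3 at 24 h, 14.8 at 36 h, 18.4 at 48 h, with 4.28 at 168 h. As deposited its 3 h and 16 h values were close, and after rescaling they were 39.0 and 24.0. Its level ranked 75th of the measured genes at 3 h and 70th at 16 h, against 2297th at 0 h.

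Ambp, the bikunin gene, had 4.82 per bp at 0 h, 29.96 at 3 h, 11.4 at 8 h, 12.9 at 16 h, 6.57 at 24 h, 11.8 at 36 h, 13.2 at 48 h, with 3.72 at 168 h. It was highest at 3 h, and its 168 h value as deposited lay below its 0 h value. The order Itih4, Itih3, Ambp from high to low held in all 7 later libraries, whereas at 0 h Ambp lay above Itih3.

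Itih1 and Itih2, the heavy chains of inter-alpha-inhibitor, stayed lower. Itih1 had 1.03 per bp at 0 h, 4.31 at 3 h, 3.67 at 8 h, 10.7 at 16 h, 5.13 at 24 h, 3.79 at 36 h, 3.02 at 48 h, with 1.66 at 168 h. Itih2 had 1.21 per bp at 0 h, 3.39 at 3 h, 4.08 at 8 h, 2.49 at 16 h, 5.19 at 24 h, 3.18 at 36 h, 3.46 at 48 h, with 2.41 at 168 h. As deposited, Itih1 was highest at 16 h, the later time at which Itih2 was second lowest, and Itih2 was highest at 24 h. After rescaling, Itih2 was lowest of the later times at 16 h, with 1.65 per bp, against 3.91 at 168 h. At 0 h Itih1, Itih2 and Itih3 were close to each other, each with 11.0% to 12.7% of measured genes at or above its level.

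**Figure D1:**
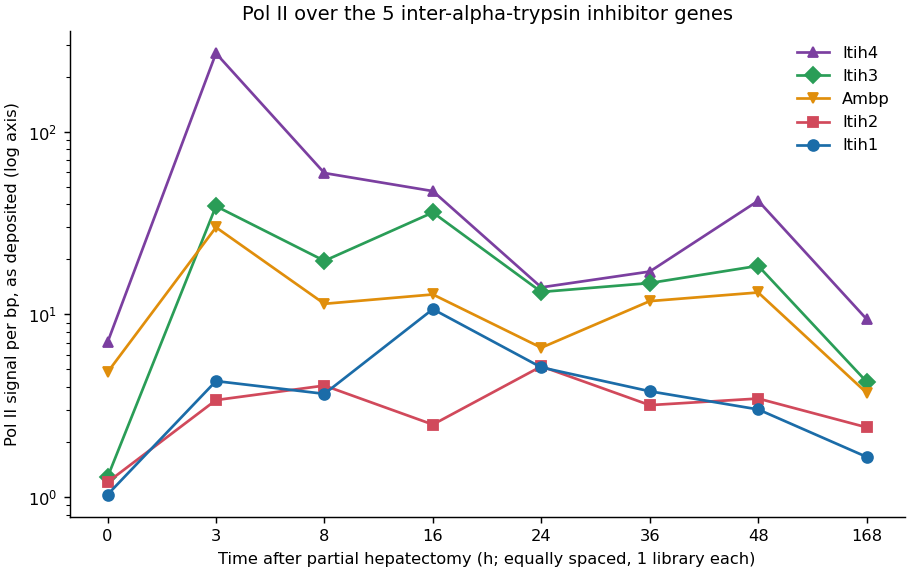
Pol II signal per bp as deposited (log axis) for the 5 genes against time after partial hepatectomy in h, with 1 library at each time and times drawn at equal steps. Itih4 reaches 269 at 3 h against 7.02 at 0 h, while Itih1 is highest at 16 h (10.7) and Itih2 at 24 h (5.19).

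Ratios of genes within a library do not depend on how libraries were scaled to each other. Per bp, Itih4 over Itih3 was 5.47 at 0 h, 6.87 at 3 h, 3.02 at 8 h, 1.31 at 16 h, 1.06 at 24 h, 1.16 at 36 h, 2.27 at 48 h, with 2.20 at 168 h. These 2 genes of the cluster were therefore nearly level from 16 to 36 h and apart at the other times. Itih3 over Itih1, its neighbour on the same strand, was 1.25 at 0 h, 9.07 at 3 h, 5.35 at 8 h, 3.38 at 16 h, 2.59 at 24 h, 3.91 at 36 h, 6.11 at 48 h, with 2.58 at 168 h. Itih4 over Itih1 was 62.3 at 3 h and between 2.74 and 16.2 in the other libraries. The 3 clustered genes thus differed most at 3 h.

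Set against bikunin, the heavy chain genes took different courses. Itih3 over Ambp was 0.266 at 0 h, 1.31 at 3 h, 1.72 at 8 h, 2.81 at 16 h, 2.02 at 24 h, 1.26 at 36 h, 1.4 at 48 h, with 1.15 at 168 h, so it lay above 1 in every later library and below 1 at 0 h. Itih1 over Ambp was 0.214 at 0 h, 0.144 at 3 h, 0.321 at 8 h, 0.831 at 16 h, 0.780 at 24 h, 0.321 at 36 h, 0.229 at 48 h, with 0.446 at 168 h. Itih2 over Ambp was 0.250 at 0 h, 0.113 at 3 h, 0.357 at 8 h, 0.194 at 16 h, 0.791 at 24 h, 0.269 at 36 h, 0.263 at 48 h, with 0.647 at 168 h. Both inter-alpha-inhibitor heavy chains stayed below Ambp in all 8 libraries and were lowest against it at 3 h.

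**Figure D2:**
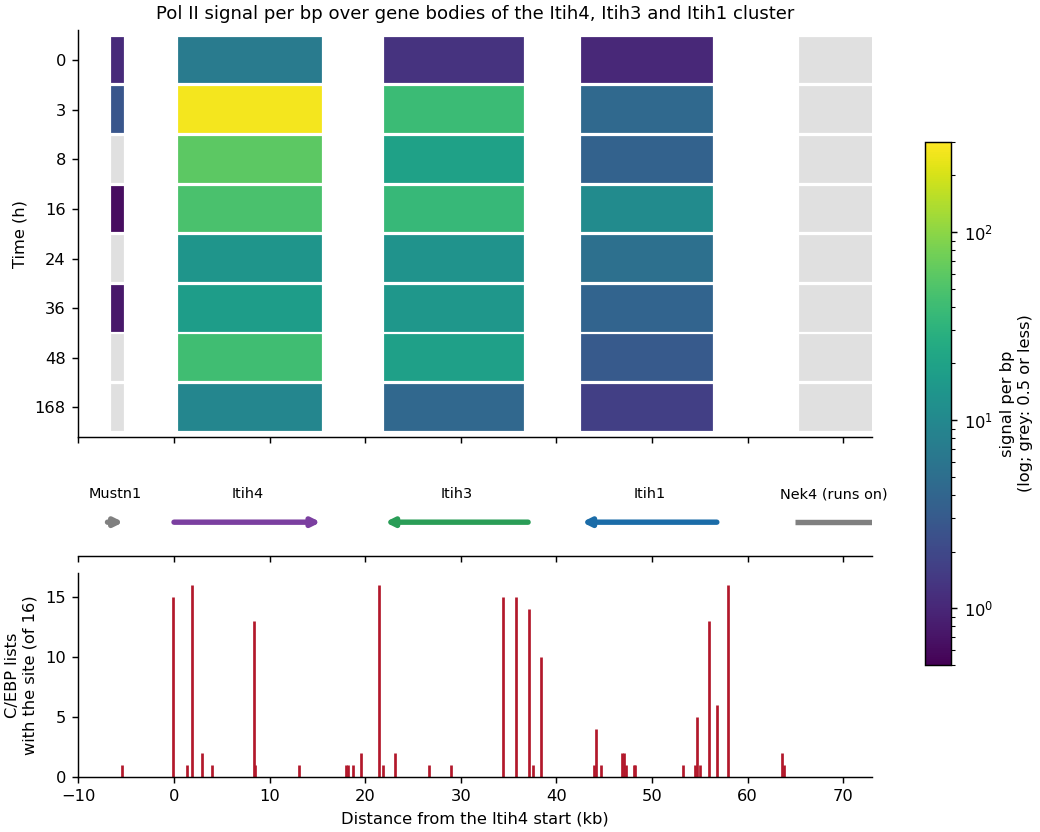
Top, Pol II signal per bp as deposited (colour, log scale, grey at 0.5 or less) over the gene bodies of the cluster in the 8 libraries, by distance from the Itih4 start in kb; middle, gene directions; bottom, the number of the 16 C/EBP lists that hold each site. Itih4 is brightest at 3 h (269 per bp), and Nek4 beyond Itih1 is grey in all 8 libraries.

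The genes next to the cluster did not share these levels. Mustn1, a small muscle gene before Itih4, had 2.78 per bp at 3 h and between -0.33 and 1.07 in the other libraries. Nek4, a kinase gene beyond Itih1, was below 0 in all 8, and Tmem110 beyond Mustn1 had 1.23 at 3 h against -0.07 at 0 h. Near Itih2, the heavy chain relative Itih5 was below 0 in all 8 libraries. Kin, which runs toward Itih2 with a gap of 1891 bp between their rows, had 5.24 per bp at 3 h, 2.88 at 168 h and 3.49 to 4.82 at the other later times, against 1.92 at 0 h. Atp5c1, a subunit gene of mitochondrial ATP synthase beyond Kin, lay between 0.106 and 0.484. Kif12 and Zfp618 on either side of Ambp were below 0 in all 8. On the log2 scale of the changes given next, Tmem110, Kin and Mustn1 had 1.79, 1.45 and 1.24 at 3 h, and Atp5c1 had -0.36. The changes of Itih1 and Itih2 at 3 h, 1.82 and 1.37, were of similar size to the first 3. Kin was higher by 1 or more at 5 of the 7 later times, while Mustn1 had -1.47 at 168 h.

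Changes against 0 h were taken as differences of log2(level + 0.5) after the libraries were rescaled to a common set of genes. They all rest on the single 0 h library. At 3 h the changes were 5.41 for Itih4, 4.66 for Itih3, 2.75 for Ambp, 1.82 for Itih1 and 1.37 for Itih2. A log2 change of 1 or more was thus met by 5 of 5 genes at 3 h, when 18.1% of the 4761 genes with enough signal to be tested met it. The numbers were 5 of 5 at 8 h (14.5% of tested genes), 4 at 16 h (15.1%), 4 at 24 h (18.4%), 5 at 36 h (16.5%), 5 at 48 h (15.2%), with 4 at 168 h (17.7%). No member was lower by 1 or more at any time, while 21.4%, 12.8%, 10.6%, 14.4%, 11.1%, 13.5% and 19.3% of tested genes were, from 3 to 168 h. The median change of the 5 was 2.75, 1.68, 2.33, 2.05, 1.21, 1.67 and 1.32 from 3 to 168 h, where that of tested genes lay between -0.08 and 0.12. With a pseudocount of 2 the numbers higher by 1 or more were 4 at 3 h and 3 at 16 h. They were 2 at 36 h, 3 at 48 h and 2 at 168 h under that setting. Without rescaling they were 3 at 24 h and 1 at 168 h, and with the background set per library 3 at 16 h.

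Itih3 had the highest change of the 5 genes at every later time but 3 h, and with a pseudocount of 2 Itih4 was above it at 8 h as well (3.03 for Itih4 and 2.88 for Itih3). Its changes were 4.66, 3.75, 3.96, 3.27, 3.03, 3.66 and 2.25 from 3 to 168 h, and ranked between 10th and 71st of the 4761 tested genes at every time. Itih4 covered a wider range, with 5.41, 3.30, 2.33, 1.34, 1.21, 2.81 and 1.32, and its rank ran from 11th at 3 h to 563rd at 36 h. Itih1, Itih3 and Itih4 were higher by 1 or more at all 7 later times, as were 2.6% of tested genes. With a pseudocount of 2, Itih1 missed this at 36, 48 and 168 h (0.85, 0.85 and 0.72). Without rescaling, Itih1 missed it at 168 h (0.50) and Itih4 at 24 and 168 h (0.95 and 0.40), and Itih3 kept it under both settings. Itih2 missed this at 16 h only, with 0.52. Ambp missed it at 24 h with 0.78 and at 168 h with 0.54; without rescaling, its 168 h change was -0.33.

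**Figure D3:**
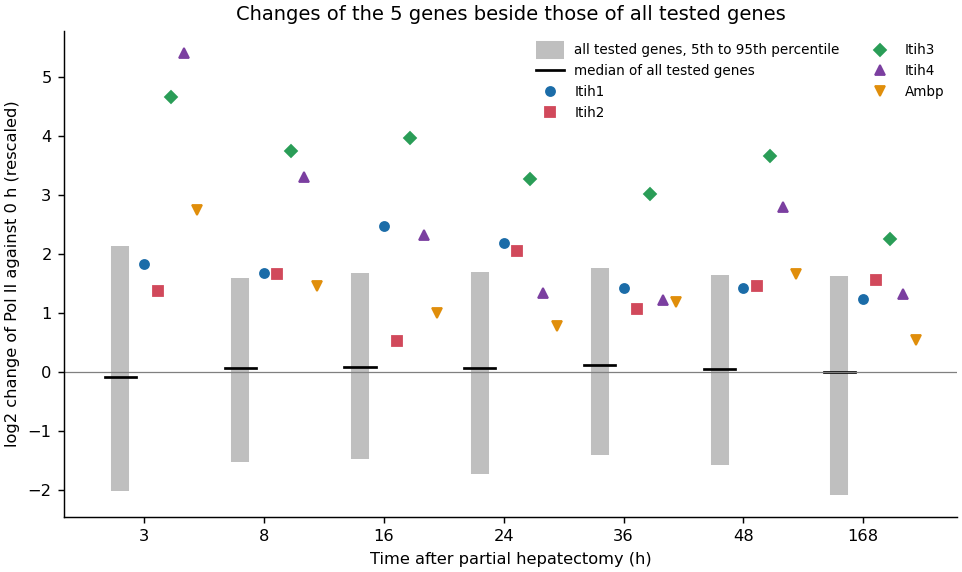
Log2 change of rescaled Pol II against 0 h (y axis) at each later time in h for the 5 genes (coloured symbols), beside the 5th to 95th percentile (grey bar) and median (black line) of all 4761 tested genes. Itih3 lies above the grey bar at all 7 times, and Itih4 at 3 h reaches 5.41.

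A smooth trend over the 8 libraries was tested for all 4761 genes with limma (F test on a natural spline over the rank of time, Benjamini-Hochberg adjustment). It called 1 gene, or 0.021% (Rgs16, adjusted p = 0.0296 by limma), with 465 genes at an unadjusted p under 0.05. Of the 5 members, 0 passed. Itih1 had an unadjusted p of 0.0203 and an adjusted p of 0.471, and Itih3 had 0.0682 and 0.529. Itih4, Itih2 and Ambp had adjusted p-values of 0.643, 0.670 and 0.862. The higher Pol II signal of these genes after 0 h is thus given as a description of 8 libraries, without a replicate check.

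Across the 8 libraries the log2 levels of the members were alike to different degrees. Pearson's r was 0.952 for Itih4 with Ambp, 0.864 for Itih1 with Itih3, 0.833 for Itih3 with Ambp and 0.825 for Itih3 with Itih4. It was 0.502 for Itih1 with Itih4 and 0.468 for Itih1 with Ambp. For Itih2 it ran from 0.371 with Itih4 to 0.558 with Itih3. Over all tested genes, those most like Itih4 were Txnl4b, Bcl3 and Litaf (r = 0.992, 0.986 and 0.982), and those most like Ambp were Bcl3, Pa2g4 and Slc41a2 (r = 0.981, 0.978 and 0.973). Bcl3, an atypical regulator of NF-kappaB, was thus named for both. Those most like Itih3 were Agbl5, Nedd4l and Qsox1 (r = 0.989, 0.988 and 0.987). Zfand2a, Clpp and Fgfr4, a fibroblast growth factor receptor, were most like Itih1 (r = 0.974, 0.969 and 0.959). Tbc1d8, Wdr45l and Egfr, the epidermal growth factor receptor, were most like Itih2 (r = 0.964, 0.949 and 0.941). Levels of Tbc1d8 lay between -0.04 and 0.74 per bp and those of Wdr45l between 0.22 and 0.71. Pa2g4 and Zfand2a reached at most 1.17 and 1.25. Egfr had 1.69 per bp at 0 h, 5.56 at 3 h, 11.1 at 8 h, 3.93 at 16 h, with 11.8 at 24 h, so its 16 h value was lower than those on either side, as for Itih2. These r values were picked as the highest of 4761 genes over 8 points and are given as a description, since all genes share the same libraries.

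A list of other plasma protease inhibitors and relatives of their families, not all of them inhibitors, went both ways at 3 h. Of 28 listed genes, all measured, 23 were tested, and 7 (30.4%) were higher and 8 (34.8%) lower by 1 or more at 3 h, against 18.1% and 21.4% of all tested genes, with a median change of 0.01. The rows of Serpina3k and Serpina3m, both among the 7, overlap and cannot be told apart (2.54 and 2.55). Serpina3n, a serine protease inhibitor of the acute phase in mouse, had 150 per bp at 3 h against 4.13 at 0 h, a log2 change of 5.26. Serpinf1, which encodes pigment epithelium-derived factor, had 0.35 per bp at 3 h against 4.89 at 0 h, a change of -2.42. At the later times 6 to 10 of the 23 (26.1% to 43.5%) were higher, against 14.5% to 18.4% of all tested genes, and 1 to 3 (4.35% to 13.04%) were lower, against 10.6% to 19.3%. Medians ran from 0.09 to 0.75.

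Genes of the partners of these proteins were mostly near or below 0, as was the typical measured gene. The median over all measured genes lay between -0.21 and -0.01 per bp in the 8 libraries. The hyaluronidase genes Hyal1, Hyal2 and Hyal3 stood higher, reaching 20.2, 8.92 and 29.2 per bp, though the Hyal3 row overlaps another gene entry. Of 18 listed genes of the hyaluronan matrix (synthases, hyaluronidases, receptors and binding proteins), 17 were measured and 5 tested, and at 3 h 0 were higher and 0 lower by 1 or more. The extremes at 3 h were Hyal1, a hyaluronidase, at 0.69 and Stab2, a hyaluronan receptor of liver endothelium, at -0.53. Among these, 11 of the 17 measured genes were at 0.5 per bp or less in all 8 libraries. They included Has1, Has2 and Tnfaip6, whose product transfers heavy chains to hyaluronan. Such low levels were common, since only 4761 of all 20933 measured genes exceeded 0.5 after rescaling in 2 or more libraries. The share of all measured genes at 0.5 or less in all 8 was not computed. Of 19 listed genes of chondroitin sulfate synthesis, 17 were measured, 11 were at 0.5 per bp or less in all 8 libraries and 5 were tested, with a median change at 3 h of -0.59. B3gat3, an enzyme of the linkage to the core protein, was higher at 3 h (1.29) and Papss2, which makes the sulfate donor, was lower (-1.48). No gene of these 3 lists passed the trend test.

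**Figure D4:**
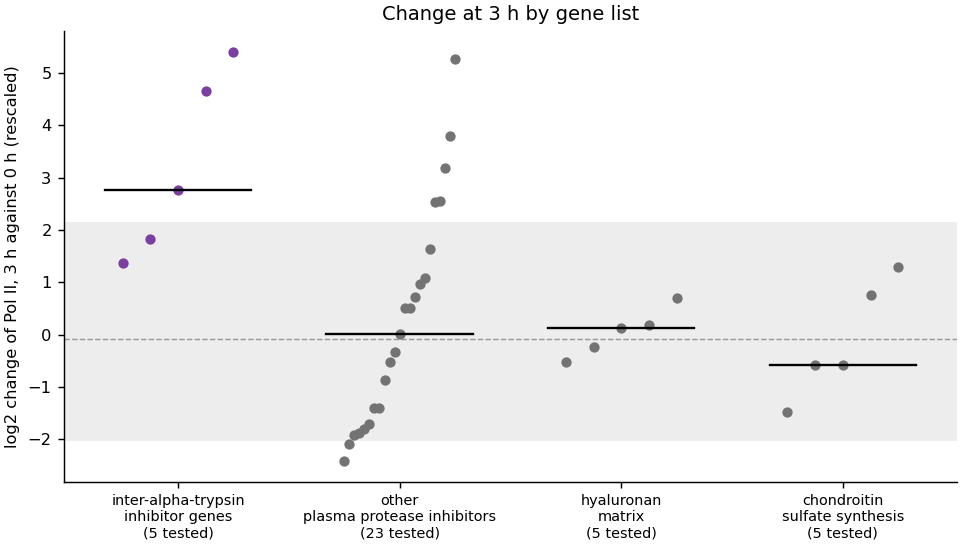
Log2 change of rescaled Pol II at 3 h against 0 h (y axis) for the 5 members and for tested genes of 3 lists, with black lines at the medians, a dashed line at the median of all tested genes and grey from their 5th to 95th percentile. The members lie between 1.37 and 5.41. The 23 tested genes of the list of other plasma protease inhibitors and their relatives spread from -2.42 to 5.26.

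The 8 Pol II libraries were those of liver tissue by their markers. The 7 hepatocyte markers were all tested, with summed levels from 285 to 834 per bp over the 8 libraries. They did not move one way at 3 h: 2 were higher and 3 lower by 1 or more, and their median change was -0.86. Apoa1, the main apolipoprotein of high-density lipoprotein, made up most of the sum at 0 h and 3 h. It had 651 per bp at 3 h against 368 at 0 h. At 168 h its 82.6 lay below the 89.4 of the marker Tat. Albumin (Alb) had 16.9 per bp at 3 h against 46.4 at 0 h, and transthyretin (Ttr) had 2.40 at 3 h against 21.5 at 0 h. Summed Kupffer cell and macrophage markers had 1.33 at 3 h and at most 4.36 in any library, against 4.27 at 0 h, with 4 of 6 tested. The 5 endothelial markers summed to between 2.33 and 3.28. The 6 stellate cell and fibroblast markers were each at 0.5 per bp or less in all libraries. Biliary markers summed to at most 3.87, neutrophil markers to 1.24 and lymphocyte markers to 0.60. These sums include negative values, so single markers lay above them. Sox9 (biliary) had 5.74 per bp at 16 h, and Ela2 (neutrophil) had 2.14 and Lck (lymphocyte) 1.38 at 0 h. In whole tissue, fewer cells with Pol II on a gene and less Pol II per cell cannot be told apart. The part of cell composition in the changes above was not tested. At 3 h 50.6% of entries had a signal below 0, the highest share of any library, and at 168 h it was 38.4%, the lowest. Summed over all entries, the 3 h signal was itself below 0, at -16276217. Sums of the other libraries ran from 32639618 at 48 h to 49996740 at 24 h. The 3 h levels, ranks and changes above come from this library.

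C/EBP regions lay near all 5 genes at all times. Each member had a C/EBPalpha region with its centre within 10 kb of the start in all 8 lists, and likewise a C/EBPbeta region, giving 40 of 40 pairs of gene and list for each factor. Of tested genes, 41.7% had one in all 8 C/EBPalpha lists and 47.6% in all 8 C/EBPbeta lists. In single lists such a region was common, at 60.9% to 70.3% of tested genes for C/EBPalpha and 60.6% to 80.7% for C/EBPbeta. A region in each of the 16 lists was met by 39.4% of tested genes and 17.2% of all measured genes. Within 1 kb of the start the number of members with a region differed between lists without a steady course. For C/EBPalpha it was 2 at 0 h (28.1% of tested genes), 5 at 3 h (35.6%), 3 at 8 h (27%), 2 at 16 h (31.7%), 5 at 24 h (23.9%), 4 at 36 h (32.7%), 3 at 48 h (28.4%), with 5 at 168 h (34%). For C/EBPbeta it was 2 at 0 h (35.4%), 5 at 3 h (51.2%), 5 at 8 h (36.7%), 4 at 16 h (31.2%), 4 at 24 h (29.2%), 5 at 36 h (46.3%), 4 at 48 h (27.3%), with 4 at 168 h (31.3%). The lists differ in length, from 20061 to 54574 regions.

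When region centres within 100 bp were joined into sites, 51 sites lay within 10 kb of the 5 starts, and 5 of them, called constant sites, were in all 16 lists. Genome-wide, 7060 of 113957 sites were in all 16 lists. Of the members, 4 had at least 1 such site, as did 28.9% of tested genes, and Itih2 had 2, as did 6.11%.

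For Itih1 this site lay 1184 bp before the start, on chromosome 14 from 31757618 to 31757729. It was the top-ranked of the gene's regions in all 16 lists by the authors' score, ranked 98th of 25972 in the C/EBPalpha list of 168 h and 2315th at worst, and was among the 1000 top-scoring regions of 13 lists. Of tested genes, 1.55% had a region of the top 1000 within 10 kb in 13 or more lists and 17.3% in at least 1 list, which 3 of the 5 members had. For Itih4 the site lay 1901 bp into the gene, from 31701521 to 31701666, and was likewise the top-ranked of the gene's regions in all 16 lists. Its best rank was 319th of 25972, in the C/EBPalpha list of 168 h, and it was among the top 1000 of 4 lists. A further Itih4 site, from 31699543 to 31699714 with its middle 59 bp before the start, was in 15 lists. It reached past the start, so it lies only in part within the stretch printed above even if the starts coincide.

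Ambp had its constant site 3001 bp into the gene, on chromosome 4 from 62812119 to 62812308. It was the top-ranked of the gene's regions in all 16 lists, with a best rank of 1481st of 31658 in the C/EBPbeta list of 36 h, and never among the top 1000. A second Ambp site, 93 bp before the start, was in 10 lists. Itih2 had constant sites 2939 and 4343 bp into the gene, on chromosome 2 from 10049214 to 10049447 and from 10047828 to 10048054. The second of these was the top-ranked of the gene's regions in 12 lists and 531st of 34098 in the C/EBPbeta list of 24 h. At worst it ranked 31591st of 35256, in the C/EBPbeta list of 3 h, where the site at 2939 bp ranked 26485th. Itih3 had no site in all 16 lists. Its sites 1311 bp (31735312 to 31735524) and 2630 bp (31734056 to 31734146) into the gene were each in 15 lists. A further site from 31736722 to 31736945, with its middle 121 bp before the start, was in 14. The best rank of any Itih3 site was 2028th of 29847, for that at 2630 bp in the C/EBPalpha list of 24 h. In each of the 16 lists the top-ranked Itih3 region ranked below that of Itih1.

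**Figure D5:**
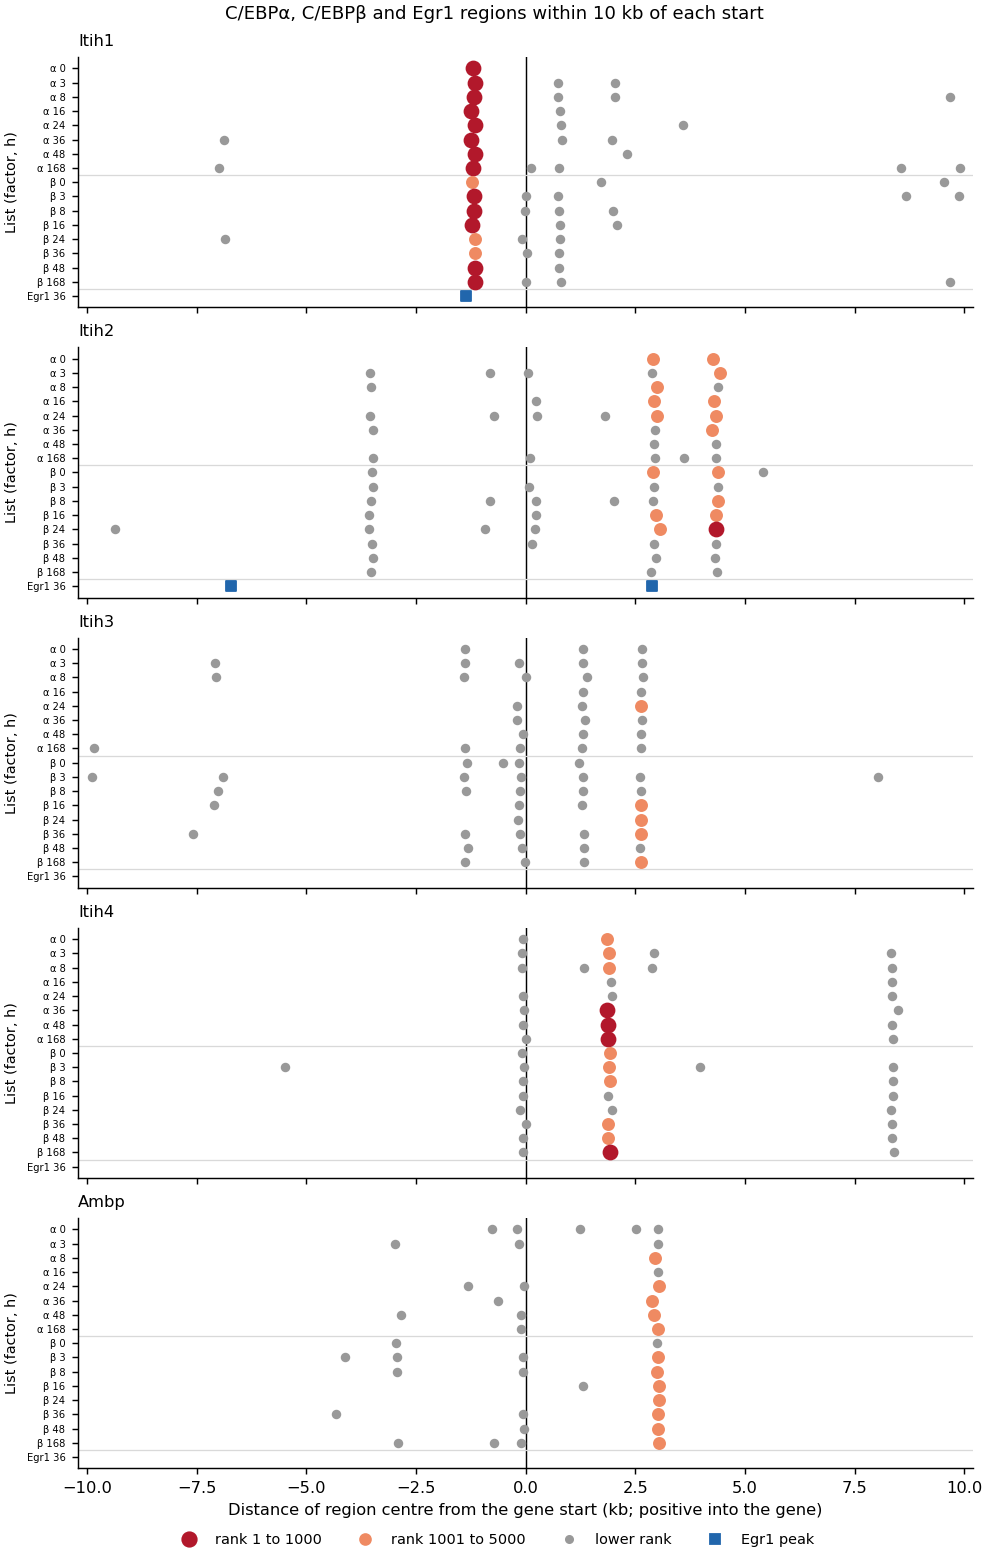
Centres of C/EBPalpha, C/EBPbeta and Egr1 regions by distance from each gene start in kb (positive into the gene), 1 row per list, coloured and sized by rank of the authors' score within the list. Itih1 has a region 1184 bp before the start in all 16 C/EBP lists, 13 times among the top 1000, and Egr1 peaks appear at Itih1 and Itih2 only among the 5 genes.

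Egr1 at 36 h had peaks within 10 kb of the start of 2 of the 5 genes, as for 19.5% of tested genes and 10.9% of measured genes. The Itih1 peak, on chromosome 14 from 31757077 to 31758602, was centred 1364 bp before the start and overlapped the constant C/EBP site there. It ranked 5240th of 9895 by the authors' score. Of the 2 Itih2 peaks on chromosome 2, that from 10048822 to 10049978 lay 2890 bp into the gene, overlapped the C/EBP site at 2939 bp and ranked 4415th. The other, from 10058583 to 10059434, lay 6718 bp before the start, overlapped no C/EBP site and ranked 882nd. The nearest Egr1 peaks to the starts of Itih3, Itih4 and Ambp were 15941, 21102 and 102773 bp away.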

How the data were processed

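ChIP-seq libraries from mouse liver were assigned to groups from their titles; 25 of 26 samples were used, and the mock precipitation at 0 h was not analysed here. The submitters' processing notes list the build mm9 and the tools Bowtie 0.12.7 and MACS 1.4.1, without a role. The deposited Pol II files give a signed score per gene row, which its negative values mark as background-subtracted; the authors' scaling between libraries is not stated in the labels. The deposited C/EBP and Egr1 lists give a score per region, which was used only to rank regions within a list, with tied scores sharing a rank. The caller of the C/EBP regions and any pooling of the 5 mice are likewise not given. The files hold no read counts, so depth is unknown. With no batch labels, batch and time cannot be told apart.

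Of 31804 gene entries, 10871 were not used (ends before starts, repeated names, bodies under 500 bp or other chromosomes). Pol II signal was divided by row length, and the row was moved back 500 bp by strand for the gene start. For changes, library scales were set by median-of-ratios factors from the 1472 genes that exceeded 0.5 in every library, which moved changes by -0.32 to 0.97 on the log2 scale; negative values became 0, and a pseudocount of 0.5 preceded the log2, which understates changes at low levels. The 4761 genes that exceeded 0.5 in 2 or more libraries entered limma 3.58.1 (R 4.3.3) as a natural spline with 3 degrees of freedom and an adjusted p threshold of 0.05, and the procedure was checked on simulated data. Its spread is the scatter of libraries about the curve. All 5 members passed the filter on low values. Tables were handled with pandas 2.3.3 in Python 3.11.15.

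Named genes were the members, the 3 tested genes most like each by Pearson's r, genes with rows within 50 kb, and the extremes at 3 h of each gene list. The members and lists were chosen with earlier results of these data known. RefSeq promoters matched all 5 members by symbol. ChIP carries no strand.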

Additional observations from a re-analysis of the deposited data

How the results depend on the processing

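Each result came from single libraries, so no replicate could be left out; leaving out a time point removes a library. The 1 gene called by the trend test became 0 with a pseudocount of 0.05, with no filter on low values, and without the 3, 8, 16, 24 or 48 h library, and 6 without the 0 h library; no member was called under any of these settings. Without the 0 h library the adjusted p was 0.0873 for Itih4 and 0.141 for Ambp. With a pseudocount of 2 the number of members higher by 1 or more fell to 4 at 3 h and 3 at 16 h. The same setting gave 2 at 36 h, 3 at 48 h and 2 at 168 h. No rescaling gave 3 at 24 h and 1 at 168 h, and the background set per library gave 3 at 16 h. With no rescaling, Ambp at 168 h had -0.33 in place of 0.54, and 4 other changes, all at 168 h, moved by over 1.5 times as a fold, to 0.50 for Itih1, 0.77 for Itih2, 1.42 for Itih3 and 0.40 for Itih4. Of the 35 member changes, all stayed positive with a pseudocount of 0.05, with a pseudocount of 2 (13 moved by over 1.5 times as a fold), and with the background set per library. The 2 members with an Egr1 peak became 1 with scores of 100 or more and 0 within 1 kb. The 51 C/EBP sites became 28 with only the 20061 top-scoring regions of each list. No paired analysis was possible because each antibody and time had 1 library and no replicate numbers. Depth is unknown and limits all levels.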

Other observations

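Beyond 10 kb of any member start, a further pair of C/EBP sites in all 16 lists lay around the chromosome 14 cluster. The first was 21407 bp from the Itih4 start, in the gap where the ends of the Itih4 and Itih3 rows face each other. The second was at -10840 bp, between the rows of Tmem110 and Mustn1.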
